A study of Gallus gallus with 2 samples.

Results

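The genes described here encode the protein factors that start, extend and end translation in the cytoplasm. They were every gene name in the deposited tables that begins with EIF, EEF, GSPT or PABPC (the EIF and EEF names followed by a digit), together with ETF1. This rule gave 49 genes of 13011 gene names, and it used names alone. RNA was sequenced from hearts of chicken embryos (Gallus gallus) in 2 libraries, 1 from embryos given AAPH and 1 from embryos given saline, which is called the control. AAPH, 2,2-azobis(2-amidinopropane) dihydrochloride, decomposes to free radicals and was used to place the embryo in an oxidative environment. It was injected into the air chamber of the egg at 2.6 µmol in 100 µL at Hamburger-Hamilton stage 35 and then every other day until day 10; the labels do not give the injection schedule of the saline eggs. Eggs of both groups were kept at 38 °C and 70% humidity, and hearts of both groups were collected at day 11, which is stage 37. The AAPH hearts came from embryos that survived the injections, and neither the number of hearts in a library nor the sex of the embryos is given.

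Translation of a capped messenger RNA starts when eIF4F binds the cap and the small ribosomal subunit arrives with eIF3, eIF1, eIF1A, eIF5 and a ternary complex of eIF2, GTP and initiator tRNA. Elongation then needs eEF1A to deliver tRNAs, the eEF1B complex to recharge eEF1A with GTP, and eEF2 to move the ribosome along. Cells under stress slow initiation by phosphorylating eIF2, and growth signals through mTOR release the cap-binding protein eIF4E from its inhibitors, the 4E-BPs. Many transcripts of the translation machinery carry a pyrimidine tract at the 5′ end, the 5′TOP element, and are controlled as a class in mammals. The growing heart makes contractile protein at a high rate and depends on these factors.

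A gene's level is its FPKM, a fragment number divided by transcript length and by the size of the library, added up over the transcript rows that carry its name. The log2 ratio is log2((AAPH FPKM + 1)/(control FPKM + 1)), which makes differences of weakly expressed genes look smaller. Comparisons were limited to the 10106 genes whose FPKM averaged 1 or more over both libraries, and a difference of 1.5-fold on this scale was counted as higher or lower. There is 1 library per group, so no difference has a replicate check, and no p-value, standard deviation or standard error is given. Summed FPKM of the AAPH library was 0.835 times that of the control library, so a change of scaling moves nearly every ratio the same way; the median log2 ratio of all genes was 0.004 in the deposited values and 0.23 once both libraries were set to the same sum (TPM). Sequencing depth is unknown from FPKM values, but a single fragment counted for 1.05 times as much FPKM in AAPH hearts as in control hearts, as read from weakly expressed genes. Heart muscle markers were abundant in both libraries, with a sum of 12548 FPKM in AAPH hearts, against 13974 FPKM in control hearts over 8 of 12 listed genes. Of these 8, 6 had log2 ratios below 0 and 2 above 0. Erythroid markers summed to 2323 FPKM in AAPH hearts, against 3477 FPKM in control hearts (8 of 16 genes). Neuronal markers summed to 24.1 FPKM with AAPH and 39.8 FPKM in control (7 of 8 genes). Of these neuronal genes 6 averaged 1 FPKM or more, and all 6 had log2 ratios below 0, against 49.5% of all genes. Of the 8 erythroid genes, 6 had log2 ratios below 0 and 2, TAL1 (0.19) and RHAG (0.12), above 0. Liver markers summed to 75.8 FPKM in AAPH hearts, against 161 in control hearts (5 of 7 genes). APOA1 made up 72.0 FPKM of this with AAPH and 156 FPKM in control. HPD was at 2.29 FPKM with AAPH and 3.93 FPKM in control, and only these 2 liver genes averaged 1 FPKM or more. ALB was at 0.158 FPKM with AAPH and 0.279 FPKM in control, and FGB at 0.668 FPKM with AAPH and 0.762 FPKM in control. TTR went the other way, at 0.709 FPKM with AAPH and 0.225 FPKM in control. Endothelial markers summed to 151 FPKM with AAPH and 137 FPKM in control (7 of 7), and fibroblast and epicardial markers to 815 FPKM with AAPH and 847 FPKM in control (8 of 9). Of the endothelial genes 5 had log2 ratios above 0 and 2 below. The fibroblast and epicardial genes were split, with 4 above 0 and 4 below (median 0.01). The part of these cell types in the results below was not tested.

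The factor genes as a whole were close in level between the libraries, and their direction differed by role. Of the 48 genes that passed the filter, 0 were higher and 2 were lower in AAPH hearts. Among all tested genes 2.73% were higher and 3.93% were lower, so the share of lower factor genes, 4.17%, was near the background. After rescaling to TPM 0 factor genes were higher and 0 lower, against 8.40% and 1.60% of all genes. At 2-fold, 0 factor genes were higher and 0 lower, against 0.356% and 0.782% of all genes. At a smaller log2 threshold of 0.32, 0 were higher, against 11.6% of all genes, and 8 (16.7%) were lower, against 14%. Their median log2 ratio was −0.12, against 0.004 for all genes, and 35 of the 48 (72.9%) had a ratio below 0, against 49.5% of all genes. After rescaling to TPM 12 of the 48 did, with the median of all genes at 0.23. Shares of all genes below 0 are given here for the deposited values only. Counts of genes above or below 0 after rescaling therefore have no background share beside them. The 49 genes together held 0.735% of FPKM in AAPH hearts, against 0.762% in control hearts. EF1A, which RefSeq gives as a synonym of EEF1A1, has a name the rule does not match and is not in these shares. In bulk tissue, fewer cells of a type and less RNA per cell cannot be told apart.

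**Figure D1:**
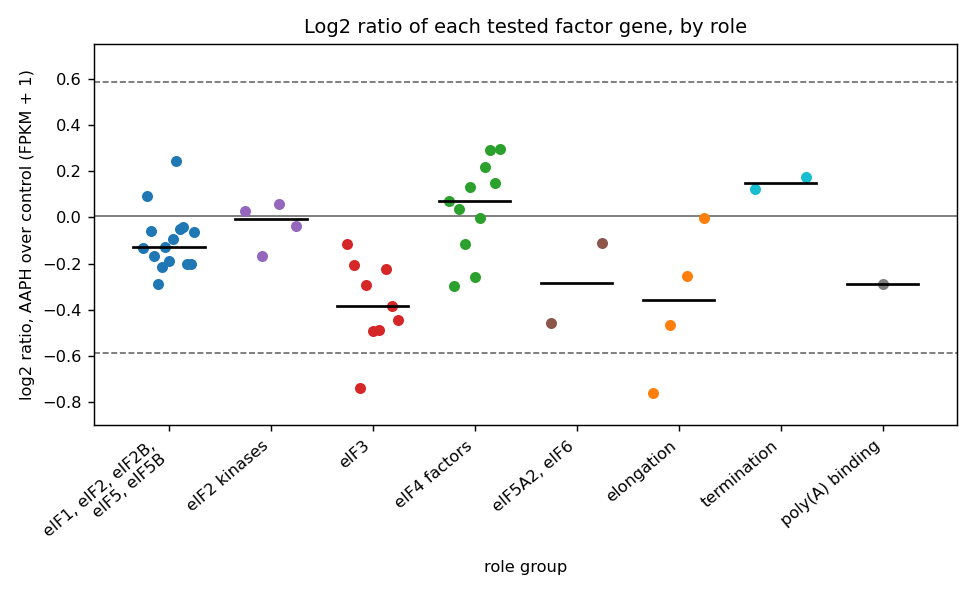
Log2 ratio (AAPH over control, FPKM + 1) of the 48 tested factor genes by role group; each point is 1 gene, short black bars are group medians, the grey line is the median of all tested genes and dashed lines mark 1.5-fold. As deposited, all 9 eIF3 genes lie below 0 (6 of them after rescaling to TPM), the eIF4 factors spread to both sides, and EEF1B2 and EIF3D are the 2 genes past the lower dashed line.

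Abundant genes had lower ratios in these libraries in general, and many factor genes are abundant. Where FPKM averaged 100 or more, the 19 factor genes had a median log2 ratio of −0.29, against −0.19 for all 644 genes of that class, and 16 of the 19 (84.2%) lay below 0, against 76.1%. In that class 2 of 19 (10.5%) were lower at 1.5-fold, against 8.54% of all genes. The 55 lower genes of that class include the 28 lower cytosolic ribosomal protein genes. The class share without ribosomal protein genes was not worked out. From 10 to 100 FPKM the 24 factor genes had a median of −0.06, against −0.02 for all genes, with 16 of them (66.7%) below 0, against 54.1%, and 0 lower at 1.5-fold, against 2.63%. The 5 genes from 1 to 10 FPKM had a median of −0.003, against 0.06, with 3 of them (60%) below 0, against 41.9%, and 0 lower, against 4.51%. These are values as deposited. The RefSeq table places none of the 49 genes on the Z sex chromosome.

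**Figure D2:**
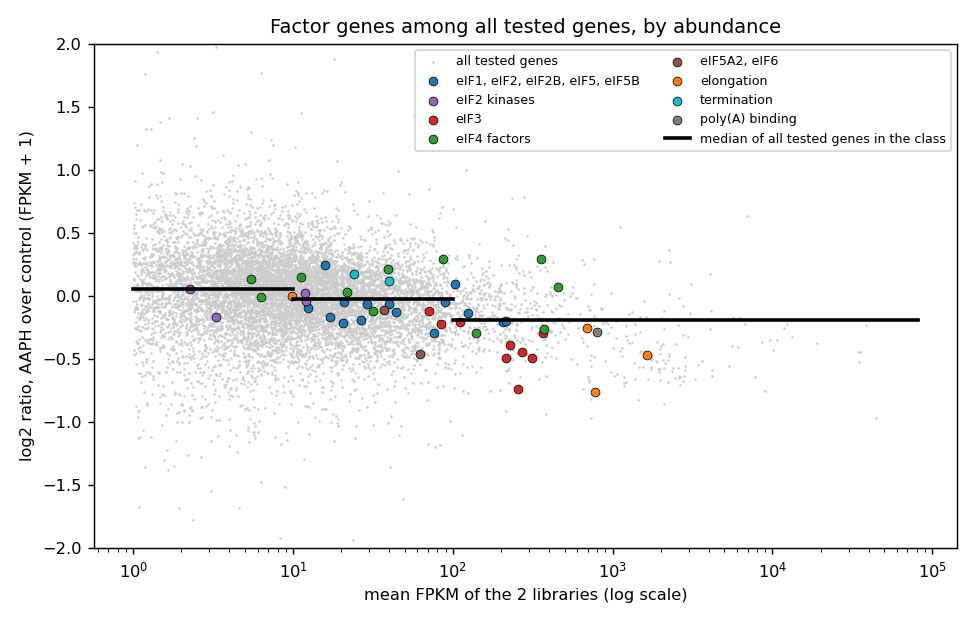
Log2 ratio against mean FPKM (log scale) of all 10106 tested genes in grey and the factor genes in colour by role; black lines are the medians of all genes in the classes of 1 to 10, of 10 to 100, and of at least 100 FPKM, and 23 grey genes lie outside the plotted range of 2 either way. Most eIF3 and elongation genes lie under the black line of their class, while EIF4G2 and EIF4A2 lie above it.

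The eIF3 complex, the largest initiation factor and the scaffold that carries the small subunit to the messenger RNA, had the lowest median of the role groups when rows were summed; with the highest row per gene the elongation median was lower, at −0.58 against −0.38 for eIF3. All 9 measured subunits had ratios below 0 as deposited (6 of 9 after rescaling to TPM), with a median of −0.38, and their summed level was 1636 FPKM in AAPH hearts, against 2195 FPKM in control hearts. As deposited, 49.5% of all genes had ratios below 0 and 3.93% were lower. Among genes averaging 100 FPKM or more, as 7 of the 9 do, 76.1% had ratios below 0 and 8.54% were lower. EIF3D, the subunit that can itself bind the cap of some transcripts, was at 192 FPKM in AAPH hearts, against 320.2 in control hearts (log2 ratio −0.74), and was the 1 eIF3 gene past 1.5-fold (within it after rescaling to TPM). Of all tested genes, 2.05% had a lower ratio than EIF3D, and of those averaging 100 FPKM or more 2.64% did. EIF3H was at 259 FPKM in AAPH hearts, against 365 in control hearts (−0.49). EIF3I, which sits in the mobile module with EIF3B, was at 179.7 FPKM in AAPH hearts, against 252 in control hearts (−0.49). On the plain FPKM scale EIF3H and EIF3I both had a difference of −28.8% from control hearts, and EIF3D one of −40.2%.

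The other eIF3 subunits followed at smaller differences. EIF3M was at 229 FPKM in AAPH hearts, against 312 in control hearts (−0.44), and EIF3L at 196 FPKM with AAPH and 257 FPKM in control (−0.38). EIF3E, the subunit with the highest level, was at 332 FPKM in AAPH hearts, against 407 in control hearts (−0.29). EIF3J, a loosely attached subunit, was at 78.0 FPKM with AAPH and 91.1 FPKM in control (−0.22), EIF3B at 103 FPKM with AAPH and 118 FPKM in control (−0.21), and EIF3A, the largest subunit, at 67.7 FPKM with AAPH and 73.5 FPKM in control (−0.12). The 3 least abundant subunits, EIF3A, EIF3B and EIF3J, thus had the ratios nearest to 0, and theirs were the 3 above 0 after rescaling to TPM. In both libraries EIF3E had the highest and EIF3A the lowest level of the 9. Above an average of 100 FPKM, the 7 eIF3 genes had a median of −0.44, against −0.19 for all genes of that abundance.

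Elongation factors made up the most abundant group, with a median log2 ratio of −0.36 as deposited and −0.10 after rescaling to TPM. EEF1B2, the catalytic exchange subunit of eEF1B, was at 578 FPKM in AAPH hearts, against 978 in control hearts, a log2 ratio of −0.76, the lowest of all 48 genes (−0.50 after rescaling to TPM). It ranked as the second factor gene by level in the control library and the fourth in the AAPH library. EEF1D, another exchange subunit of eEF1B, was the most abundant of the 49 genes in both libraries, at 1372 FPKM in AAPH hearts, against 1896 FPKM in control hearts (−0.47). EF1A lies outside the 49 genes and outside the sums of this group. Its level was higher than that of EEF1D, at 5207 FPKM with AAPH and 6886 FPKM in control. EEF2, the translocase, was at 628 FPKM in AAPH hearts, against 748 in control hearts (−0.25). The group's sum was 2588 FPKM in AAPH hearts, against 3633 in control hearts, or 33.8% of the FPKM of all factor genes with AAPH and 38.2% in control. EEF2K, the kinase that inhibits eEF2 by phosphorylation, was at 9.83 FPKM in AAPH hearts, against 9.85 in control hearts. Of the 4 genes, 1 was lower at 1.5-fold and 0 higher, against 3.93% and 2.73% of all genes. All 4 ratios lay below 0 as deposited, that of EEF2K at −0.003, against 49.5% of all genes. EEF1B2, EEF1D and EEF2 average over 100 FPKM, where 8.54% of all genes were lower and 76.1% had ratios below 0. After rescaling to TPM 2 of the 4 elongation genes had ratios below 0.

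PABPC1, the cytoplasmic protein that coats poly(A) tails and bridges them to eIF4G, was at 723 FPKM in AAPH hearts, against 882 FPKM in control hearts (−0.29). Its relative PABPC1L was at 0.458 FPKM in AAPH hearts, against 0.630 in control hearts, and did not pass the filter; it is the 1 gene of the 49 left out of the counts. The smallest whole fragment numbers that give the PABPC1L ratio of 0.728 are 9 in AAPH hearts, against 13 in control hearts, and with these the ratio has a 95% interval of 0.275 to 1.84 (Clopper-Pearson, exact). A difference of PABPC1L was thus not detectable if it rests on these numbers. They are the smallest that fit, and the real numbers may be larger. For EIF5B, at 28.4 FPKM with AAPH and 29.7 FPKM in control, the same step gave 10 and 11. At an FPKM so far above that of PABPC1L these are unlikely to be the real numbers. The step can therefore return pairs that are too small, and whether it did so for PABPC1L was not tested. The interval of PABPC1L covers counting error only.

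**Figure D3:**
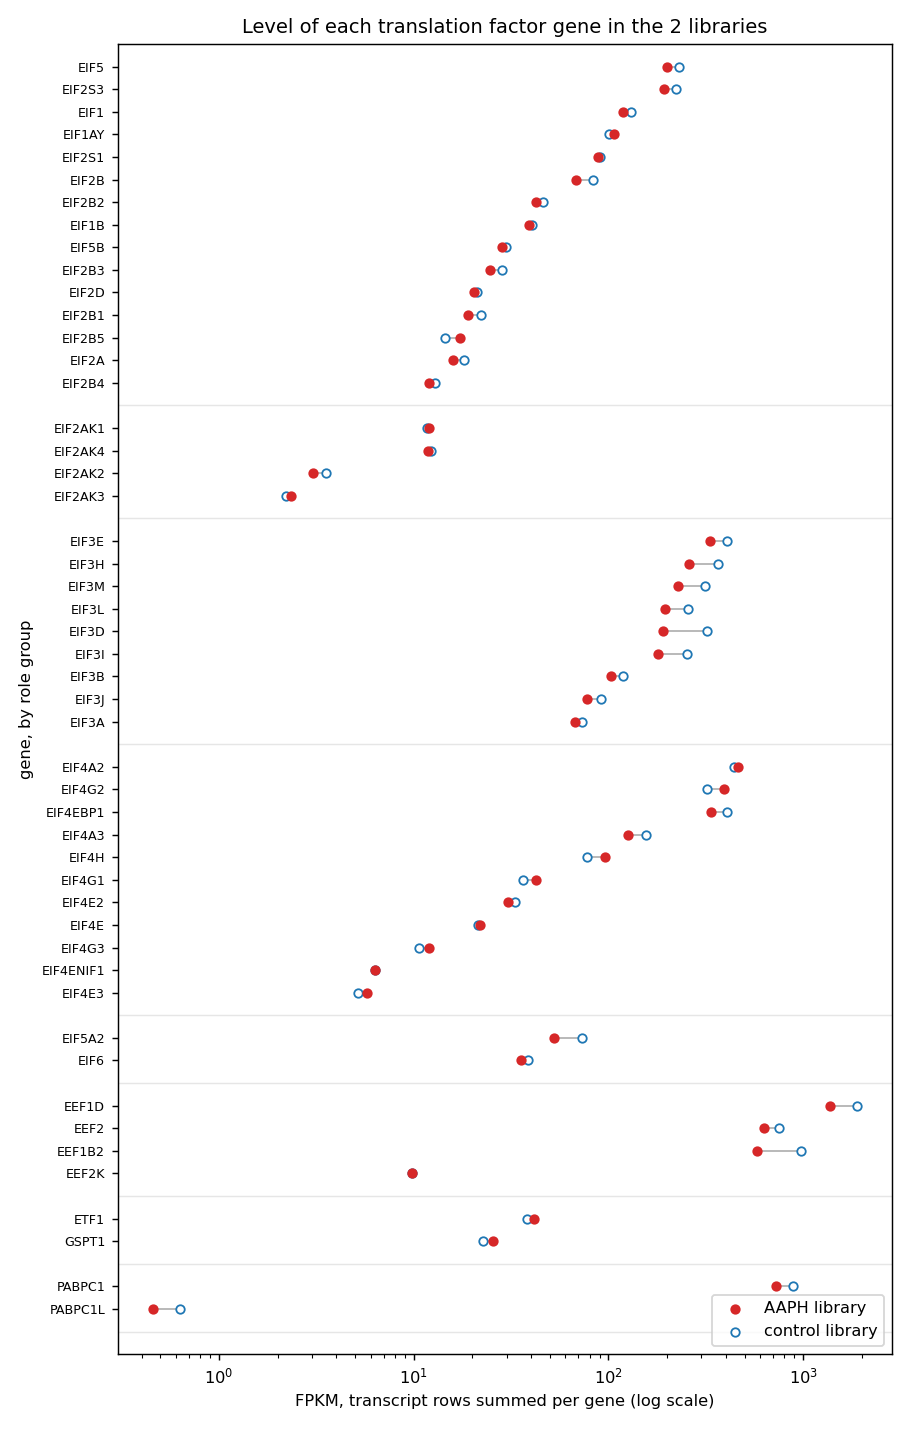
FPKM (log scale) of all 49 factor genes in the AAPH library (filled) and the control library (open), grouped by role and ordered by AAPH level within each group. As deposited, every open eIF3 point lies to the right of the filled one (6 of 9 after rescaling to TPM); in EIF4G1, EIF4G2, EIF4G3 and EIF4H it lies to the left.

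Transcripts known in mammals to carry the 5′TOP element were set against the other factor genes, since ribosomal protein genes, which carry it too, had low ratios. The list was written from knowledge of mammals, and whether the chicken genes carry the element was not examined. It names 10 factors, of which 6 are among these genes, namely EEF1B2, EEF1D, EEF2, EIF3E, EIF3H and PABPC1. All 6 had ratios below 0 (5 of 6 after rescaling to TPM), with a median of −0.38, and the sum of their FPKM in AAPH hearts was 0.738 times that in control hearts. Of all genes averaging 100 FPKM or more, as these 6 do, 76.1% had ratios below 0 as deposited. The 42 other tested factor genes had a median of −0.10, with 29 below 0 (7 after rescaling to TPM), and their sum was 0.889 times as high. All 6 listed genes average over 100 FPKM, and the 13 other factor genes of that abundance had a median of −0.21. Abundance and membership of the list therefore move together, and their parts were not tested. EF1A, which RefSeq gives as a synonym of EEF1A1 and whose name the rule does not match, was at 5207 FPKM in AAPH hearts, against 6886 in control hearts (−0.40). Cytosolic ribosomal protein genes, 64 by name, lay at a median of −0.58. Of these, 28 (43.8%) were lower, against 3.93% of all genes and 8.54% of those averaging 100 FPKM or more, and 0 were higher. After rescaling to TPM 2 were lower, against 1.60% of all genes. The FPKM of the factor genes was 0.0807 of the ribosomal protein sum in AAPH hearts, against 0.0678 in control hearts.

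The factors that bring the initiator tRNA and select the start codon included no gene past 1.5-fold. Among all genes 2.73% were higher and 3.93% lower, so a count of 0 in so small a group is near the background. Of 15 genes, 13 had ratios below 0 as deposited and 1 after rescaling to TPM, with a median of −0.13 as deposited. Among all genes as deposited, 49.5% had ratios below 0, with 54.1% from 10 to 100 FPKM and 76.1% at 100 FPKM or more. The share of all genes below 0 after rescaling to TPM is not given here, but their median was then 0.23. The subunits of eIF2 were led by EIF2S3, the GTP-binding subunit, at 192 FPKM in AAPH hearts, against 221 in control hearts (−0.20). EIF2S1, the subunit that stress kinases phosphorylate, was at 87.9 FPKM in AAPH hearts, against 90.7 in control hearts (−0.04). The gene listed as EIF2B, a name RefSeq gives as a synonym of EIF2S2 (the beta subunit of eIF2), was at 68.4 FPKM in AAPH hearts, against 83.7 in control hearts (−0.29), the lowest ratio of this group. EIF5, which triggers GTP hydrolysis by eIF2, had the highest level, at 199.6 FPKM in AAPH hearts, against 229.7 in control hearts (−0.20). EIF5B, which joins the ribosomal subunits, was at 28.4 FPKM with AAPH and 29.7 FPKM in control (−0.06).

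The scanning factor EIF1 was at 119 FPKM in AAPH hearts, against 131 in control hearts (−0.13), and its paralogue EIF1B at 38.9 FPKM with AAPH and 40.7 FPKM in control (−0.06); such close copies can share reads, so their separate values are uncertain. EIF1AY, which RefSeq lists as a synonym of EIF1AX, was 1 of the 2 genes of this group above 0, at 107 FPKM in AAPH hearts, against 100.3 in control hearts (0.09). EIF2A was at 15.95 FPKM with AAPH and 18.0 FPKM in control (−0.17) and EIF2D at 20.5 FPKM with AAPH and 21.2 FPKM in control (−0.05); both can deliver initiator tRNA without eIF2. The 5 subunits of eIF2B, the exchange factor that recharges eIF2 and the point where the stress response acts, did not share a direction as deposited, and all 5 had ratios above 0 after rescaling to TPM. EIF2B5, the catalytic subunit, was at 17.3 FPKM in AAPH hearts, against 14.5 in control hearts (0.24), the highest ratio of the group. EIF2B1 was at 18.9 FPKM with AAPH and 22.1 FPKM in control (−0.21), EIF2B3 at 24.8 FPKM with AAPH and 28.4 FPKM in control (−0.19), EIF2B2 at 42.3 FPKM with AAPH and 46.3 FPKM in control (−0.13) and EIF2B4 at 11.9 FPKM with AAPH and 12.8 FPKM in control (−0.09). The sum of the 5 was 0.331 of the sum of the 3 eIF2 subunits in AAPH hearts, against 0.314 in control hearts, and library scaling does not change these values.

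The 4 kinases that phosphorylate eIF2 under stress had levels that differed little between the libraries, with a median log2 ratio of −0.01 (0.21 after rescaling to TPM). EIF2AK1, the haem-regulated kinase, was at 11.9 FPKM in AAPH hearts, against 11.7 in control hearts (0.03). EIF2AK4, or GCN2, the sensor of uncharged tRNA, was at 11.9 FPKM in AAPH hearts, against 12.2 in control hearts (−0.04). EIF2AK3, or PERK, the endoplasmic reticulum kinase, was at 2.35 FPKM with AAPH and 2.22 FPKM in control (0.06), and EIF2AK2, or PKR, which responds to double-stranded RNA, at 3.05 FPKM with AAPH and 3.56 FPKM in control (−0.17). None of the 4 was past 1.5-fold, and among all genes only 2.73% were higher and 3.93% lower. Transcript levels say nothing of the kinases' activity, and phosphorylation of eIF2 was not measured.

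The cap-binding and helicase factors held the genes with the highest ratios of summed rows. Of 11 genes, 7 had ratios above 0 (10 after rescaling to TPM), with a median of 0.07. At 1.5-fold 0 were higher and 0 lower, against 2.73% and 3.93% of all genes, which is near the background for so few genes. Among all 10106 tested genes, 5100 had ratios above 0 as deposited. EIF4H, which stimulates the eIF4A helicase, was at 95.6 FPKM in AAPH hearts, against 77.8 in control hearts (0.29), but row 3 of this gene was at 11.8 FPKM with AAPH and at 0 in control, and the ratio of its highest row was 0.04. EIF4G2, also called DAP5 and used in translation that bypasses the cap-binding protein, was at 394 FPKM in AAPH hearts, against 322 in control hearts (0.29). Of all tested genes, 86.1% had a lower ratio than EIF4G2, and of those averaging at least 100 FPKM 95.7% did. EIF4G1, the main scaffold between the cap and the ribosome, was at 42.2 FPKM in AAPH hearts, against 36.2 in control hearts (0.22), and EIF4G3 at 11.9 FPKM with AAPH and 10.7 FPKM in control (0.15). As deposited, all 3 eIF4G genes thus had ratios above 0 and the 9 eIF3 genes ratios below 0; by its highest row EIF4G3 was at −0.03.

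Because the scaling of a library cancels in a ratio of 2 sums from it, eIF3 was also set against eIF4G within each library, a comparison chosen after the values were seen. The eIF3 sum was 3.65 times the eIF4G sum in AAPH hearts, against 5.96 times in control hearts. Most of the eIF4G sum was EIF4G2, with 394 of 448 FPKM in AAPH hearts and 322 of 368 FPKM in control hearts. The eIF3 sum includes row 3 of EIF3D, at 16.4 FPKM with AAPH and 91.7 FPKM in control. The ratio of EEF1B2 to EIF4G2, the lowest gene and the highest gene above 100 FPKM, was 1.47 in AAPH hearts, against 3.04 in control hearts. Both ratios show the size of the spread inside the factor genes, and neither has a replicate.

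EIF4A2, the helicase of eIF4F and the most abundant gene of this group, was at 464 FPKM in AAPH hearts, against 442 in control hearts (0.07). EIF4A3, a related helicase of the exon junction complex, was at 126 FPKM in AAPH hearts, against 155 in control hearts (−0.30), the lowest ratio of the group. The cap-binding proteins EIF4E, at 21.9 FPKM with AAPH and 21.4 FPKM in control (0.03), EIF4E2, at 30.5 FPKM with AAPH and 33.1 FPKM in control (−0.12), and EIF4E3, at 5.75 FPKM with AAPH and 5.16 FPKM in control (0.13), were near 0 in log2 ratio. EIF4EBP1, which binds eIF4E and blocks it until mTOR phosphorylates it, was at 338 FPKM in AAPH hearts, against 405 in control hearts (−0.26). The ratio of EIF4EBP1 to EIF4E was 15.4 in AAPH hearts, against 18.9 in control hearts. EIF4ENIF1, which carries eIF4E into the nucleus, was at 6.33 FPKM with AAPH and 6.34 FPKM in control (−0.004).

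Both termination factors had ratios above 0 when rows were summed, while ETF1 was at −0.40 by its highest row. ETF1, or eRF1, which reads the stop codon, was at 41.7 FPKM in AAPH hearts, against 38.2 in control hearts (0.12). GSPT1, or eRF3a, the GTPase that works with it, was at 25.6 FPKM in AAPH hearts, against 22.6 in control hearts (0.17); RefSeq holds this name as a synonym of GSPT2. EIF5A2, an eIF5A protein that carries the modified amino acid hypusine and helps ribosomes over difficult stretches, was at 52.7 FPKM in AAPH hearts, against 72.7 in control hearts (−0.46). EIF6, which keeps free large subunits from joining small ones, was at 35.6 FPKM with AAPH and 38.5 FPKM in control (−0.11).

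In 24 of the 35 factor genes with 2 or more rows, the rows lay on both sides of 0 in log2 ratio. This count takes rows of any level and differences of any size, and the share among all genes is not given here. Of the 35 tested factor genes with 2 or more rows, 8 (22.9%) had a row whose share of the gene's FPKM differed by 20 percentage points or more between the libraries, against 36.4% of the 6743 tested genes with 2 or more rows. Rows of 1 gene overlap, so the division of reads among them is an estimate, and the tables give no confidence interval for it. EEF2K showed the largest difference, since row 2 was at 4.06 FPKM in AAPH hearts, against 0.030 in control hearts, while row 1 was at 5.77 FPKM with AAPH and 9.82 FPKM in control. Its gene sum was nevertheless almost equal. In EIF2AK4 row 2 was at 0.484 FPKM in AAPH hearts, against 4.82 in control hearts, and row 1 at 5.03 FPKM with AAPH and 2.40 FPKM in control. EIF2AK2, EIF4ENIF1, EIF2B3 and ETF1 also passed 20 points with gene ratios within 1.5-fold.

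The lower call of EIF3D rests on 1 of its 3 rows. Row 3 was at 16.4 FPKM in AAPH hearts, against 91.7 in control hearts, row 2 at 144 FPKM with AAPH and 199 FPKM in control, and row 1 at 30.8 FPKM with AAPH and 29.8 FPKM in control. Without row 3 the log2 ratio of EIF3D was −0.38, within 1.5-fold. The EIF5A2 difference was also uneven, with row 2 at 36.7 FPKM in AAPH hearts, against 27.7 in control hearts, row 3 at 15.99 FPKM with AAPH and 37.5 FPKM in control, and row 1 at 0.016 FPKM with AAPH and 7.48 FPKM in control. EEF2 had 1 row at 400.1 FPKM in AAPH hearts, against 377 in control hearts, and 1 row at 228 FPKM with AAPH and 371 FPKM in control. By contrast all 6 rows of EEF1D had ratios below 0 as deposited, from −1.05 to −0.17, and EEF1B2 has a single row. Rows listed at 0 in control hearts also enter the sums of EIF4A2, whose row 3 was at 30.4 FPKM in AAPH hearts (0.005 by its highest row), and of EIF1AY, whose row 2 was at 19.6 FPKM in AAPH hearts (−0.20 by its highest row). With the highest row in place of the sum, 9 of the 48 genes had a ratio on the other side of 0, namely EEF2, EIF1AY, EIF2AK1, EIF2AK4, EIF4ENIF1, EIF4G3, EIF5, EIF5A2 and ETF1.

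**Figure D4:**
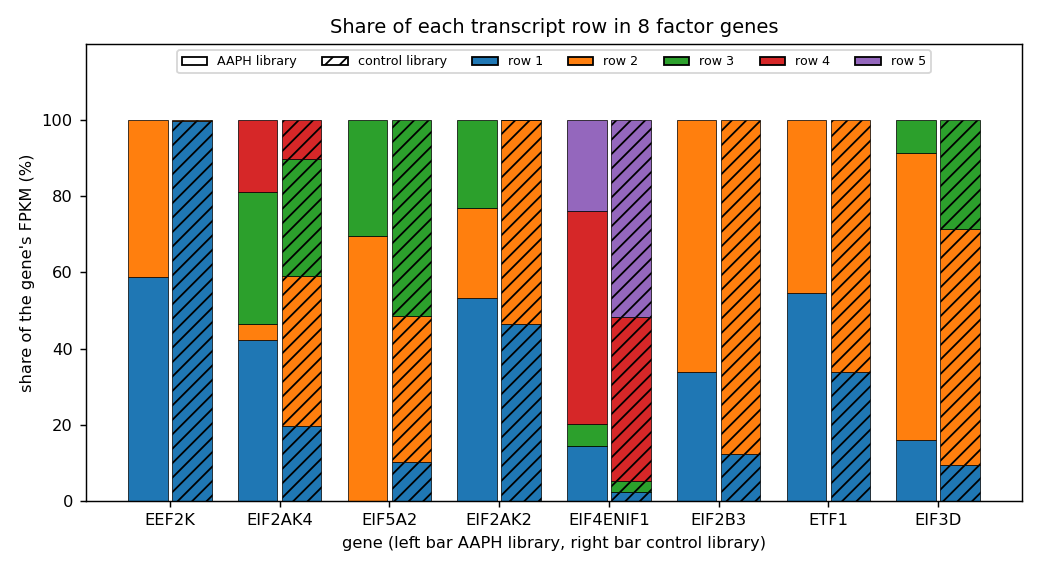
Share of each transcript row in the FPKM of its gene (%) for the 8 factor genes with a row share that differed by 20 points or more; the left bar of each pair is the AAPH library and the right, hatched bar the control library. EEF2K has 41.3% of its FPKM in row 2 in AAPH hearts and 0.30% in control hearts.

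Of 22 listed symbols of the integrated stress response, 13 had values and 11 passed the filter, so the list covers the pathway only in part. Of the 11 tested genes, 2 (18.2%) were higher and 0 lower as deposited, against 2.73% and 3.93% of all genes. After rescaling to TPM 2 were again higher, against 8.40% of all genes, and with the highest row per gene 1 was, against 7.60%. As deposited, 9 had ratios above 0 (median 0.15), of which 2, VLDLR and PSAT1, are on Z. Without Z genes 7 of 9 had ratios above 0, with the same median. Among all 10106 tested genes, 5100 had ratios above 0 as deposited. In the class of 1 to 10 FPKM, which holds both higher genes, 4.17% of all genes were higher. In that class 41.9% of all genes had ratios below 0, and their median was 0.06. The 2 higher genes were ATF3, a stress-induced transcription factor, at 9.90 FPKM in AAPH hearts, against 5.59 in control hearts (0.73), and IMPACT, an inhibitor of GCN2, at 8.14 FPKM with AAPH and 4.97 FPKM in control (0.61). ATF4, whose translation the pathway raises, was at 449.9 FPKM in AAPH hearts, against 472 in control hearts (−0.07). The lowest was PHGDH, of serine synthesis, at 17.4 FPKM with AAPH and 21.7 FPKM in control (−0.31). Of 20 tested genes of mTORC1 signalling, 0 were higher and 0 lower (median 0.002), from the Ragulator gene HBXIP, or LAMTOR5, at 74.9 FPKM in AAPH hearts, against 111 in control hearts (−0.57), to the sestrin SESN3, at 7.37 FPKM with AAPH and 5.78 FPKM in control (0.30). With the highest row per gene 1 of the 20 was higher and 1 lower (median −0.12), against 7.60% and 8.57% of all genes. After rescaling to TPM 0 were higher and 0 lower, and the median was 0.24. LARP1, which binds 5′TOP transcripts, was at 19.8 FPKM with AAPH and 19.6 FPKM in control (0.01).

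The 20 tested genes that modify the factors or partner with them had a median of 0.03 as deposited. Of these, 1 (5%) was lower and 0 higher, against 3.93% and 2.73% of all genes. After rescaling to TPM 0 were lower and 1 was higher, against 1.60% and 8.40% of all genes. DOHH, the enzyme that completes hypusine on eIF5A, was at 33.3 FPKM in AAPH hearts, against 53.6 in control hearts (−0.67). The highest, SECISBP2, a Z-linked gene that serves selenoprotein synthesis, was at 9.74 FPKM with AAPH and 6.91 FPKM in control (0.44). Without the 3 Z-linked genes of this list the median was −0.05 as deposited. Of 12 tested genes of ribosome recycling and rescue, none was past 1.5-fold (median 0.02); the recycling factor ABCE1 was highest, at 47.4 FPKM in AAPH hearts, against 39.3 in control hearts (0.26), and TCF25 lowest, at 23.2 FPKM with AAPH and 29.1 FPKM in control (−0.31). With the highest row per gene 1 of these 12 was lower, against 8.57% of all genes. Of 9 tested mitochondrial translation factors, none was past 1.5-fold as deposited and 1 was higher after rescaling to TPM (medians −0.20 and 0.04), from the initiation factor MTIF3, at 39.3 FPKM with AAPH and 58.6 FPKM in control (−0.57), to the recycling factor GFM2, at 9.79 FPKM with AAPH and 6.76 FPKM in control (0.48), which is on Z. After that rescaling 8.40% of all genes were higher. With the highest row per gene 2 of these 9 were lower, against 8.57% of all genes. Of 5 other transcripts known in mammals to carry a 5′TOP element, 1 (20%) was lower as deposited. Among genes averaging 100 FPKM or more, as these 5 do, 8.54% were lower. All 5 had ratios below 0 as deposited, against 76.1% of genes of that abundance, with a median of −0.45. After rescaling to TPM 0 were lower and 4 had ratios below 0. The lowest was the nucleolar protein NPM1, at 899 FPKM in AAPH hearts, against 1450.1 in control hearts (−0.69). The highest was NAP1L1, at 195.8 FPKM in AAPH hearts, against 200.5 in control hearts (−0.03). RPSA, 1 of these 5, is also among the 64 ribosomal protein genes.

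The direction of 23 of the 48 factor genes (47.9%) depended on the library scaling, all of them below 0 as deposited and above 0 after rescaling to TPM, and 25 kept their direction. The order of the groups with more than 4 genes was the same under both. After rescaling to TPM, 36 of the 48 genes had ratios above 0, with a median of 0.13 against 0.23 for all genes, and no gene was past 1.5-fold either way. Under this scaling the eIF3 median was −0.13, with 6 of 9 genes below 0, and the elongation median was −0.10, with 2 of 4 below 0. The eIF4 median was 0.33, with 10 of 11 genes above 0, and that of the eIF2 and start codon group was 0.13, with 14 of 15 above 0. Relative to the median of all genes, eIF3 lay at −0.39 as deposited and at −0.36 in TPM, and the eIF4 factors at 0.07 and 0.10.

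**Figure D5:**
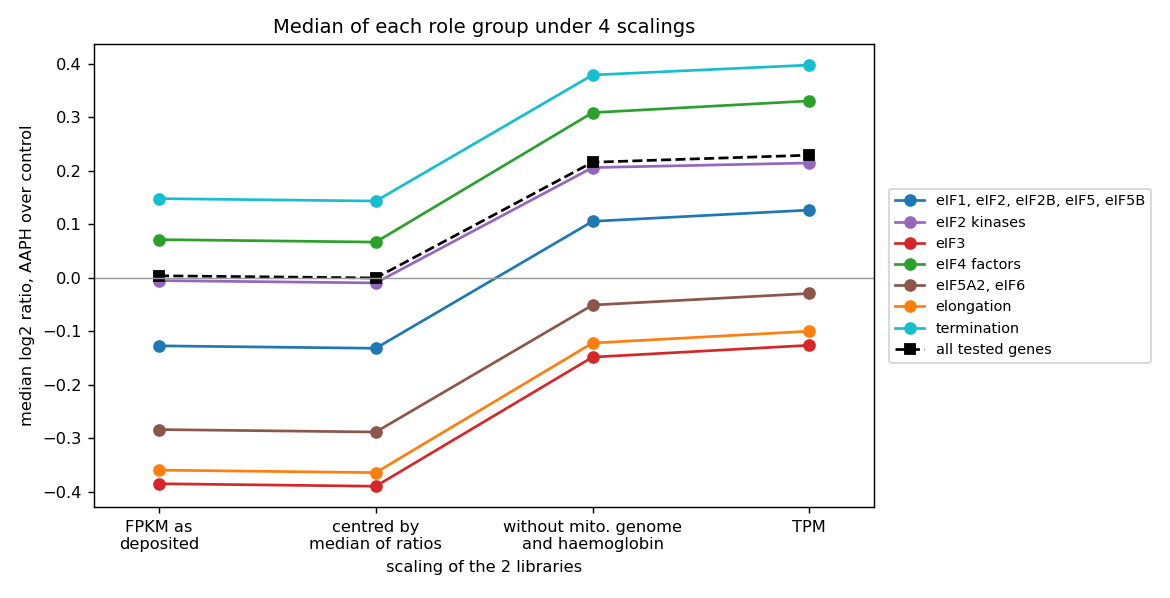
Median log2 ratio (AAPH over control) of 7 role groups and of all tested genes (black squares) under 4 scalings of the libraries; poly(A) binding, with 1 tested gene, is not drawn. All lines move up together by about the shift of all genes, and eIF3 stays lowest and termination highest.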

How the data were processed

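The deposited values are FPKM per transcript row and library, per the file headers. The authors' tools, per the submitters' processing notes, included Cuffdiff, Cufflinks 2.2.1, TopHat2 2.1.1 and bcl2fastq; genome build, annotation and strand setting: not given in the sources used here. Both tables list the same 27335 rows; 1968 rows without a gene name (20.6% of FPKM in the AAPH library, 18.2% in the control library) were left out. Rows were summed per name, a pseudocount of 1 FPKM was added, and genes averaging 1 FPKM or more were compared. Gene lists were matched exactly or through unambiguous synonyms and letter case in a RefSeq table (assembly GRCg7b), which also gave chromosomes; no coordinates were used. Listed symbols with no match were not analysed here. Values were found for 20 of 28 listed symbols of mTORC1 signalling and 20 of 25 of factor modification and partners. They were found for 13 of 18 of recycling and rescue and 9 of 12 mitochondrial factors. Of the other 5′TOP transcripts, 5 of 13 had values. The genes, lists and settings were chosen with earlier results of these data known. All 49 factor genes were eligible to be named. Of the other translation lists, members past 1.5-fold, the highest and the lowest were, except that ribosomal protein genes were described as a set. ATF4, LARP1 and EF1A were added after their values were seen. VLDLR and PSAT1 were named only as Z-linked genes, and RPSA only because it is also among the ribosomal protein genes. Relative depth came from 781 genes with 1 row and a control FPKM of 0.05 to 0.3, of which 87.6% had a ratio of whole numbers no larger than 10 (relative tolerance 0.0002). The ratio and calling steps were tested on simulated data. Software was pandas 2.3.3, scipy 1.17.1, numpy 2.4.6, matplotlib 3.10.9 and Python 3.11.15. Alternatives were other pseudocounts, filters, scalings and fold thresholds, the highest row per gene, and leaving out Z genes.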

Additional observations from a re-analysis of the deposited data

How the results depend on the processing

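With 1 library per group no replicate could be left out. No paired analysis was possible because each group has 1 library and no test was run. The number of higher factor genes was 0 under every setting tried. The number of lower ones was 2 as reported, 0 after rescaling to TPM and after rescaling without mitochondrial-genome and haemoglobin genes, 0 at a threshold of 2-fold, 8 at a log2 threshold of 0.32, and 1 without row 3 of EIF3D, an alternative chosen after seeing the data. The median log2 ratio of the factor genes was 0.13 after rescaling to TPM and 0.11 after the other rescaling, and all genes' median shifted by 0.23 and 0.21 with them. Across all genes these rescalings gave 849 higher and 162 lower, and 845 higher and 180 lower, in place of 276 and 397. With the highest row per gene in place of the sum, eIF3 had 0 lower genes and elongation 2, since EEF2K reached −0.68, the elongation median (−0.58) lay under that of eIF3, and the median of all factor genes stayed at −0.12. A pseudocount of 0.1 FPKM, other filters, centring by the median of ratios and leaving out Z genes kept both counts of factor genes and moved their median by under 0.1. Across all genes, leaving out Z genes gave 215 higher and 394 lower, in place of 276 and 397. A pseudocount of 0.1 FPKM gave 505 higher and 551 lower among all genes. With the highest row per gene 754 of 9919 genes were higher and 850 lower. The background thus moved under these settings, while the factor genes stayed at 0 higher and 2 lower. The unknown depth limits the genes with the lowest FPKM most.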
